A study of Mus musculus with 8 samples.

Results

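Livers of KKAy and C57BL/6J mice were compared at 11 weeks of age, across all genes of a whole-genome array. The comparison uses 4 of the 8 arrays of the series, chosen by sample title: 2 arrays of KKAy liver at 11 weeks against 2 arrays of C57BL/6J liver at 11 weeks. The other 4 arrays, of both strains at 4 weeks, entered the estimate of the spread and are set beside the 11-week values where a gene's strain difference was not alike at both ages. C57BL/6J is a standard inbred strain, whose state the labels give as normal. KKAy carries the yellow allele (Ay) of the agouti gene on the KK background, and the labels give its state as diabetes at both ages. All mice ate a standard chow and had no food overnight before the liver was taken. The sex of the mice and the clock time of sampling are not given in the sources used here. KKAy and C57BL/6J differ in many genes besides agouti, so an effect of the Ay allele cannot be told apart from that of the rest of the genome, and less transcript cannot be told apart from a poorer match of a probe to the KK sequence.

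The liver takes up glucose after meals, turns part of it into fat, and in fasting makes glucose and burns fatty acids. Insulin favours glucose phosphorylation and fat synthesis and restrains glucose output, and its signal is blunted in obese, insulin-resistant animals such as KKAy. The liver also makes cholesterol and bile acids, secretes most plasma proteins through its endoplasmic reticulum, and inactivates steroids and drugs with enzymes that in mice differ between males and females.

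All 4 arrays lay on 1 slide. C57BL/6J took its positions 1 and 2, KKAy took 3 and 4, and so strain cannot be told apart from position. The 75th percentile of signal was 655.3 and 615.4 fluorescence units on the C57BL/6J arrays and 645.6 and 476.1 on the KKAy arrays. The share of spots well above background ran from 56.5% to 62.1%. Levels are given as log2 signal relative to the 75th percentile of the same array, first for array 1 and then for array 2 of a strain. A difference is KKAy minus C57BL/6J on this log2 scale. The median SD between the 2 arrays was 0.126 in C57BL/6J and 0.222 in KKAy, and the number of arrays limits the precision of every value. Whether the numbered samples of a strain are separate animals is not stated in the labels. The p-values therefore speak of the spread among these arrays alone, which may be technical. The tissue label was borne out by liver genes: Alb, which encodes albumin, stood at 9.51 and 9.46 in C57BL/6J and at 9.42 and 9.72 in KKAy (difference 0.09, adjusted p = 0.854). Of 11 hepatocyte genes tested, 1 was called higher (9.09%, against 9.96% of all genes) and 3 lower (27.3%, against 11.5%) in KKAy. The higher call was lost without any single 11-week array, and fewer genes were called lower without either C57BL/6J array. Transcripts of the Y-linked genes Ddx3y, Eif2s3y, Kdm5d and Uty were measured in both strains (differences 0.11, 0.16, -0.34 and 0.51, none called), while Xist was not well above background on both arrays of any group.

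Of 17045 genes tested, 3660 (21.5%) differed between the strains at an adjusted p under 0.05 (limma, Benjamini-Hochberg), and are termed called below. They comprised 1698 genes higher in KKAy (9.96%) and 1962 lower (11.5%). A total of 1680 genes (9.86%) were called and differed at least 2-fold, 753 of them upward and 927 downward. Differences of at least 8-fold were found for 101 genes higher and 108 lower. These counts use folds as read, and include genes with KKAy or C57BL/6J at background. H2-M10.2, for example, was 35.4-fold lower as read, but only a fall of at least 7.73-fold could be stated. The levels of the strains did not overlap in any called gene, but neither did they in 57.2% of all genes tested, so a gap between 2 and 2 arrays is by itself no rare event here. The count rests on few arrays: without C57BL/6J array 1 it was 1475 and without C57BL/6J array 2 it was 1527, without KKAy array 2 it was 2420, and without KKAy array 1 it was 2685. Counts of list members with an array left out, given below, are to be read beside this fall in the calls of all genes. A smaller count in a list is thus by itself no result about that list. The split between higher and lower depended on the scaling, with 46.4% of calls higher as given. Higher calls made up 61.0% (1828 of 2995) when arrays were scaled to the spike-in controls, which moved the median of all genes by 0.14. Among 1147 called genes read by a second probe, that probe lay on the same side in 1008 (87.9%) and was itself called the same way in 542 (47.3%) and the other way in 33.

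**Figure D1:**
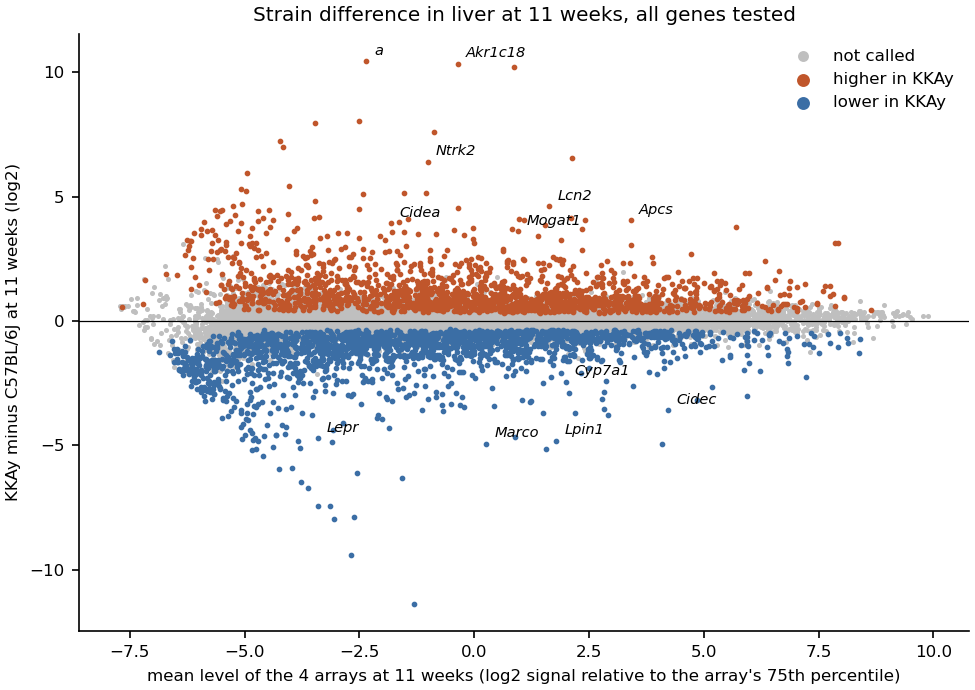
Strain difference at 11 weeks (KKAy minus C57BL/6J, log2, vertical axis) against the mean level of the 4 arrays (log2 relative to the 75th percentile, horizontal axis), with 1 point per gene tested. Orange points are the 1698 genes called higher in KKAy, blue points the 1962 called lower and grey points the rest; named genes include Mogat1 and Cidea above 0 and Lpin1, Cidec and Cyp7a1 below.

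The agouti gene a was measured in KKAy alone. Its protein is secreted and blocks melanocortin receptors, and in the Ay allele a deletion joins it to the promoter of its neighbour Raly and removes Eif2s2. Its probe, at chr2:154737198-154739151 of mm8, read -7.56 and -7.61 in C57BL/6J, where it was not well above background, and 2.65 and 3.12 in KKAy. KKAy thus exceeded C57BL/6J by at least 389-fold. The limma adjusted p of 9.49e-05 belongs to the difference as read, 10.46, which rests on C57BL/6J signal at background. An "at least" fold sets the measured group against the dimmest signal that still counted as above background on the other arrays, or the probe's own signal where that was higher. Raly, which encodes an RNA-binding protein, stood at 3.21 and 3.27 in C57BL/6J and at 1.84 and 1.86 in KKAy, a difference of -1.39 (SE 0.14, adjusted p = 0.00158). Eif2s2, a subunit of a translation initiation factor, differed by -1.03 (SE 0.20, adjusted p = 0.0163), a call lost without C57BL/6J array 1 (adjusted p = 0.0618) or array 2 (0.106) and without KKAy array 1 (0.0665). Farther along, the difference was -0.20 for Ahcy and -0.04 for Itch, neither called.

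Several other genes were measured in a single strain. Gdpd3, Serpina3a, Ifi202b, Cap2 and Olfr631 had no array of C57BL/6J well above background. For Gdpd3 the KKAy level was at least 143-fold higher, for Serpina3a at least 74.9-fold, for Ifi202b at least 34.8-fold, for Cap2 at least 33.4-fold and for Olfr631 at least 13.4-fold. A second probe of Cap2, which encodes an actin-binding protein, gave a difference of 4.84. Thumpd1, Zfp874a, Hnf4aos, Camk2b, Olig1, Lncbate1, Adgrf1 and H2-M10.2 had the reverse pattern, with neither KKAy array well above background. C57BL/6J was higher by at least 142-fold for Thumpd1, 88.3-fold for Zfp874a, 66.9-fold for Hnf4aos and 44.3-fold for Camk2b. The bounds for Olig1, Lncbate1, Adgrf1 and H2-M10.2 ran from 29.5-fold down to 7.73-fold. Thumpd1 stood at 2.04 and 1.99 in C57BL/6J against -7.51 and -7.25 in KKAy. At 4 weeks Thumpd1 was likewise not well above background in KKAy, nor Cap2 in C57BL/6J, while Olfr631 was not so in either strain. Measured in both strains, Cdh15 (M-cadherin) was higher in KKAy by 7.59 (SE 0.16) and Gstp3, a glutathione transferase, by 6.56 (SE 0.42). Gene families such as Gstp and Serpina3 hold near-identical copies, so their probes may not read 1 gene alone.

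The glucose genes were not shifted one way as a group. Of 25 genes of glucose uptake and glycolysis tested, 4 were higher (16%, against 9.96% of all genes) and 5 lower (20%, against 11.5%) in KKAy, with a median difference of -0.26 against -0.00018 over all genes. Pklr, the liver pyruvate kinase at the end of glycolysis, was higher by 1.04 (SE 0.17, adjusted p = 0.00915). Its call was lost without C57BL/6J array 1 (1.08, adjusted p = 0.0592) or array 2 (0.995, 0.0683). In the opposite direction lay Hk2, the hexokinase of other tissues (-1.45), and Pfkfb2, which makes an activator of phosphofructokinase (-1.17, SE 0.11). A second probe of Pfkfb2 gave -0.51, not called. Hk2 lost its call without C57BL/6J array 1 (adjusted p = 0.0863) or array 2 (0.188) and without KKAy array 1 (0.132). The list had 1 higher and 1 lower member without C57BL/6J array 1 and 1 and 2 without array 2. Without KKAy array 1 it had 2 and 2, and without KKAy array 2 it had 2 and 3.

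Gluconeogenic genes, which turn lactate and amino acids into glucose, were lower more often than higher. Of 20 tested, 6 were lower (30%, against 11.5% of all genes) and 1 higher, with a median of -0.21. Got1, the cytosolic aspartate aminotransferase, read 6.86 and 6.81 in C57BL/6J and 5.19 and 5.11 in KKAy, and differed by -1.69 (SE 0.10, adjusted p = 0.000302). Pck2, the mitochondrial phosphoenolpyruvate carboxykinase, differed by -1.31 (SE 0.10). Glucose-6-phosphatase, the product of G6pc that releases free glucose, read 6.63 and 6.71 against 6.21 and 6.19. That difference of -0.47 (adjusted p = 0.0284) lost its call without any single 11-week array (adjusted p = 0.0874 to 0.167). Fbp1 and Pcx, for fructose bisphosphatase and pyruvate carboxylase, differed by 0.21 and 0.02, with overlapping arrays. Without either C57BL/6J array fewer members were called lower and the higher call was lost, while calls also fell among all genes.

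Insulin signalling genes gave 5 members higher and 1 lower of 28, against 9.96% and 11.5% of all genes. The higher members numbered 1 without either C57BL/6J array and 2 without either KKAy array. The insulin receptor gene Insr (-0.16, adjusted p = 0.786), its substrate gene Irs1 (0.23) and the kinase gene Akt2 (0.18) were not called, and their arrays overlapped. Socs3, a feedback inhibitor of cytokine and insulin signals, was higher by 0.92 (adjusted p = 0.0331), and Foxo3, a transcription factor held back by insulin, by 1.14 (SE 0.17). The Socs3 call was lost without C57BL/6J array 1 (0.181) or array 2 (0.104) and without KKAy array 2 (0.127). Foxo3 was dim, at -4.93 and -5.38 against -3.99 and -4.05, and its call was lost with normexp background correction (0.45, adjusted p = 0.234). Igfbp1, a fasting-induced gene that insulin represses, read 7.78 and 8.12 in C57BL/6J and 6.388 and 6.997 in KKAy, a difference of -1.26 that missed the threshold (SE 0.37, adjusted p = 0.0604). It passed in 5 of the alternatives: quantile normalization (adjusted p = 0.00633), scaling over kept probes (0.04), by the median (0.0478) or by spike-ins (0.0403), and the replicate block (0.000864).

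**Figure D2:**
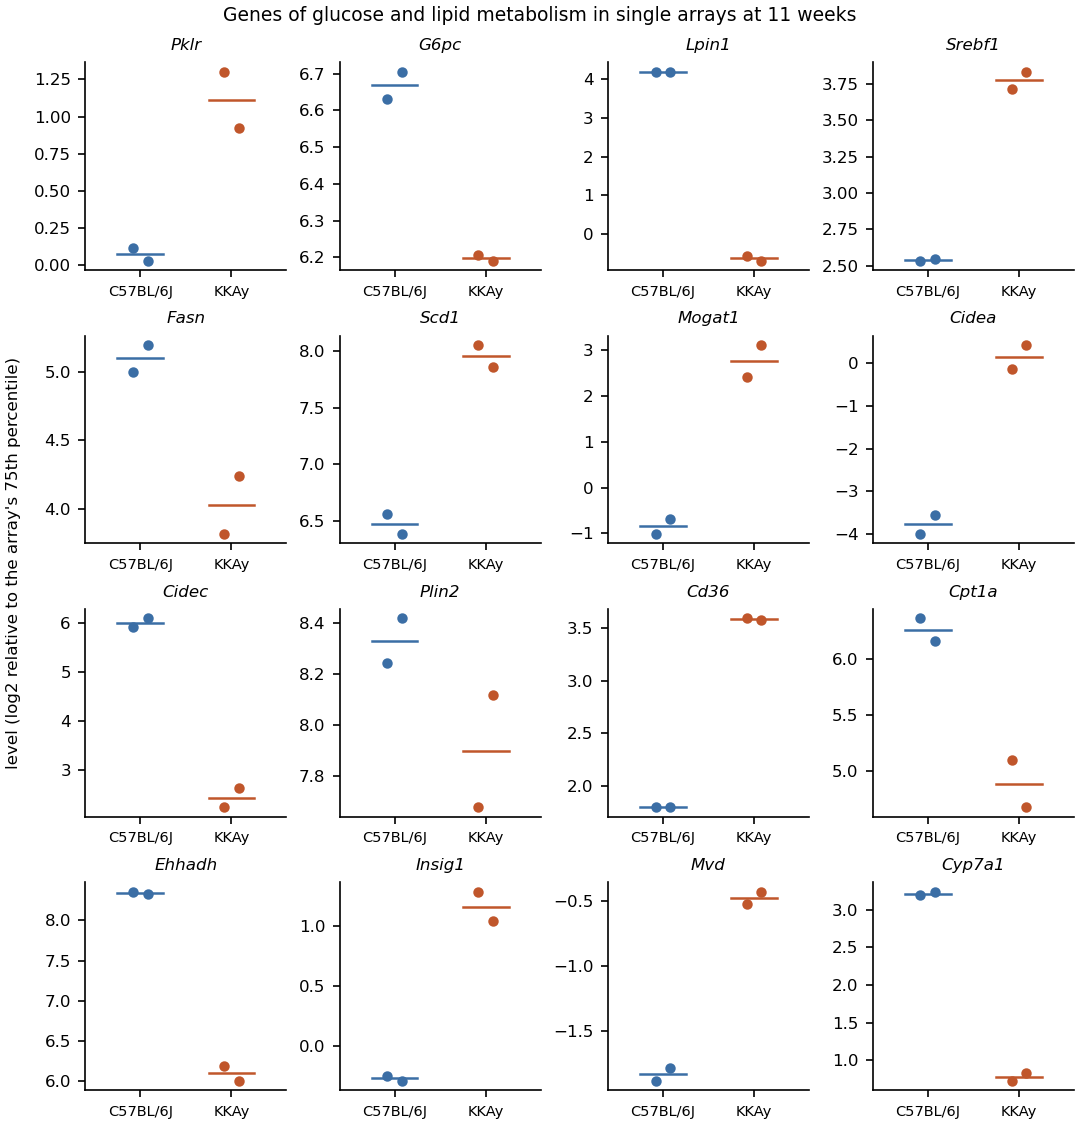
Levels on single arrays at 11 weeks for 16 genes of glucose and lipid metabolism (log2 relative to the array's 75th percentile, with a separate vertical scale for each gene). Points are arrays, bars the mean of 2 arrays, blue C57BL/6J and orange KKAy; for Mogat1, Cidea, Cd36, Insig1 and Mvd both KKAy arrays lie above both C57BL/6J arrays, and for Lpin1, Cidec, Cpt1a, Ehhadh and Cyp7a1 below.

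Fat synthesis genes went both ways. Of 19 tested, 5 were higher and 6 lower (26.3% and 31.6%, against 9.96% and 11.5% of all genes). Srebf1, which encodes the transcription factor SREBP-1 that drives fat synthesis under insulin, read 2.53 and 2.55 in C57BL/6J and 3.72 and 3.84 in KKAy, a difference of 1.24 (SE 0.11, adjusted p = 0.000942). Thrsp (Spot 14), a lipogenic cofactor, was higher by 1.07 (SE 0.10). Fasn, the fatty acid synthase itself, stood at 5.0 and 5.19 in C57BL/6J and at 3.82 and 4.24 in KKAy, lower by -1.07 (SE 0.21, adjusted p = 0.016). Elovl6, which lengthens its product, differed by -1.004 (SE 0.19, adjusted p = 0.0163). The carboxylase gene Acaca differed by -0.69 and missed the threshold (adjusted p = 0.0523, and 0.0445 with quantile normalization). The calls of Fasn and Elovl6 rested on few arrays: without C57BL/6J array 1, C57BL/6J array 2 or KKAy array 1, Fasn had adjusted p-values of 0.0699, 0.104 and 0.0606 and Elovl6 of 0.0706, 0.106 and 0.0677. Fewer list members were called, higher as well as lower, without any single 11-week array, while calls also fell among all genes. The lower calls were all lost without either C57BL/6J array. Fasn then still differed by -1.17 without array 1 and by -0.97 without array 2.

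The desaturase genes Scd1 and Fads1 were higher. Scd1, which makes monounsaturated fatty acids, read 6.56 and 6.38 in C57BL/6J and 8.05 and 7.86 in KKAy, higher by 1.48 (SE 0.14, adjusted p = 0.0012). At 4 weeks it was lower in KKAy by -0.92 (adjusted p = 0.0079), and the difference between the ages was 2.40 (SE 0.19, adjusted p = 0.00451). Fads1, a desaturase of polyunsaturated fatty acids, was higher by 0.97 (SE 0.10). Elovl3, which lengthens saturated fatty acids, did not differ at 11 weeks beyond the spread (0.03, adjusted p = 0.956, arrays overlapping), after -2.27 at 4 weeks.

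Among triglyceride assembly genes, Lpin1 and Mogat1 had large and opposite differences. Lpin1 encodes lipin-1, the phosphatidate phosphatase that makes diacylglycerol and also acts as a coactivator of fat oxidation genes in fasting. Its probe at chr12:16561989-16562047 of mm8 read 4.18 and 4.19 in C57BL/6J and -0.57 and -0.68 in KKAy, a difference of -4.81 (SE 0.10, adjusted p = 2.1e-05), and its second probe gave -5.38. Lpin1 was already lower at 4 weeks, by -2.82, and the difference widened by -1.99 (adjusted p = 0.00375). Mogat1, a monoacylglycerol acyltransferase that offers another route to diacylglycerol and is low in healthy liver, read -1.01 and -0.67 in C57BL/6J and 2.42 and 3.11 in KKAy, higher by 3.61 (SE 0.33, adjusted p = 0.00121), with 3.89 on its second probe. Dgat2, which completes the triglyceride, differed by 0.24 with overlapping arrays (adjusted p = 0.477). Of 19 members, 2 were higher (10.5%) and 3 lower (15.8%), near the shares of all genes. Without either C57BL/6J array these counts were 1 and 2, without KKAy array 1 they were 1 and 3, and without KKAy array 2 they were 2 and 2.

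Cidea and Cidec, of the CIDE family whose proteins enlarge lipid droplets, went opposite ways. Cidea, abundant in brown fat and normally low in liver, read -4.00 and -3.56 in C57BL/6J and -0.14 and 0.43 in KKAy, higher by 3.92 (SE 0.34, adjusted p = 0.00105). Cidec, which in liver follows PPAR activity and fasting, read 5.91 and 6.09 in C57BL/6J and 2.23 and 2.62 in KKAy, lower by -3.58 (SE 0.21, adjusted p = 0.000284). At 4 weeks the differences were 0.67 and 0.58, neither called, and the difference had moved by 3.25 for Cidea (adjusted p = 0.0262) and by -4.16 for Cidec (adjusted p = 0.00342). With each of the 8 arrays left out in turn, this change with age was called 1 time for Cidea and 8 times for Cidec. Cidec is also an adipocyte gene: of 4 adipocyte markers tested, Plin1 was called lower (not well above background in KKAy, with C57BL/6J at least 1.55-fold higher, and not called with normexp background correction, adjusted p = 0.801), Adipoq (-1.04), Cfd (-0.55) and Fabp4 (-0.41) were not called, and Lep, Retn and Adrb3 were not well above background on both arrays of any group. The part of adipocytes in the Cidec value was not tested. Among the perilipins, which coat droplets, Plin4 was higher (1.51, SE 0.28) and Plin5, the form of oxidative tissues, lower (-1.57, SE 0.31), while Plin2, the main liver form, missed the threshold (-0.43, adjusted p = 0.339). The calls of Plin4 and Plin5 were lost without C57BL/6J array 1 (adjusted p = 0.0927 and 0.0699) or array 2 (0.0638 and 0.107), that of Plin4 also without KKAy array 2 (0.0526) and that of Plin5 without KKAy array 1 (0.0663). Pnpla2, which encodes the main triglyceride lipase of the droplet, was lower by -1.42 (SE 0.09), with the same difference on a second probe. Of 24 members, 6 were higher (25%, against 9.96% of all genes) and 4 lower (16.7%, against 11.5%), and these counts were 2 and 3 without C57BL/6J array 1, 3 and 3 without C57BL/6J array 2 or KKAy array 1, and 2 and 4 without KKAy array 2.

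Of 19 genes of fatty acid and lipoprotein uptake tested, 4 were higher (21.1%, against 9.96% of all genes) and 2 lower (10.5%, against 11.5%), with a median of 0.09. A single member was lower without C57BL/6J array 1, C57BL/6J array 2 or KKAy array 2. Cd36, a fatty acid transporter, read 1.80 and 1.80 in C57BL/6J and 3.59 and 3.57 in KKAy, higher by 1.78 (SE 0.09, adjusted p = 0.000209), and at 4 weeks the difference was 0.09. Pparg, a nuclear receptor that drives fat storage genes, was higher by 1.27 (SE 0.14, adjusted p = 0.0025). Angptl8, an insulin-induced inhibitor of lipoprotein lipase, was higher by 1.43 (SE 0.11), and by 1.41 on its second probe. Of the carriers of plasma lipid, Apoa4 differed by -1.47 (SE 0.12) after 1.51 at 4 weeks, and Apoa1, the main protein of high-density lipoprotein, by -1.03 (SE 0.15). The Apoa1 call was lost without C57BL/6J array 2 (adjusted p = 0.0514). Apobec1, which edits the Apob transcript, was higher by 1.41, but its second probe gave -0.14 (adjusted p = 0.533).

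Fatty acid oxidation genes were lower in KKAy more often than higher. Of 50 members tested, 15 were lower (30%, against 11.5% of all genes) and 2 higher (4%, against 9.96%), with a median difference of -0.32. Ehhadh, the peroxisomal bifunctional enzyme, read 8.36 and 8.33 in C57BL/6J and 6.19 and 6.01 in KKAy, lower by -2.24 (SE 0.13, adjusted p = 0.000297), after -0.24 at 4 weeks. Cpt1a, which brings fatty acids into mitochondria, read 6.36 and 6.16 against 5.10 and 4.68, a difference of -1.37 (SE 0.20, adjusted p = 0.00607), and -1.28 on its second probe. Its call was lost without C57BL/6J array 1 (adjusted p = 0.0525). Cpt1b, the form of muscle, was lower by -1.85 (SE 0.21), and the acyl-CoA thioesterases Acot1 and Acot2 by -1.41 and -1.38. The fatty acid hydroxylases Cyp4a14 and Cyp4a10 differed by -1.30 (adjusted p = 0.0302) and -1.04 (0.0157), calls that were lost without either C57BL/6J array (adjusted p = 0.109 and 0.155 for Cyp4a14, 0.107 and 0.0647 for Cyp4a10) and, for Cyp4a14, without either KKAy array (0.111 and 0.0652).

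The fasting regulators Ppara and Fgf21 did not pass the test. Ppara, the receptor that switches on fat oxidation in fasting, differed by -0.32 (adjusted p = 0.109). Fgf21, a fasting hormone under Ppara, differed by 0.42 (adjusted p = 0.13). With the replicate number as a block limma called both (adjusted p = 0.0121 for Ppara and 0.00847 for Fgf21). With the mean of probes it called Fgf21 (0.32, adjusted p = 0.0452). The list had 7 or 8 lower members without C57BL/6J array 1 or 2, and without KKAy array 2 it had 10. Of 89 genes of the respiratory chain and ATP synthase, downstream of fat oxidation, 3 were higher (3.37%) and 2 lower (2.25%). These shares were below those of all genes, 9.96% and 11.5%. The median was 0.12.

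Cholesterol genes were higher in KKAy. Of 28 genes of synthesis and uptake tested, 12 were higher (42.9%, against 9.96% of all genes) and 1 was lower, with a median of 0.39. Mvd, a late enzyme of the mevalonate pathway, read -1.88 and -1.78 in C57BL/6J and -0.52 and -0.43 in KKAy, higher by 1.35 (SE 0.12, adjusted p = 0.00098). Insig1, a sterol sensor induced when SREBP is active, was higher by 1.42 (SE 0.13), with 0.50 on a second probe that was not called. Acat2, which makes acetoacetyl-CoA for the pathway, was higher by 1.78 (SE 0.17) and Stard4, a sterol carrier, by 1.72 (SE 0.43). The Stard4 call was lost without C57BL/6J array 1 (adjusted p = 0.196) or array 2 (0.0916) and without KKAy array 2 (0.126). The enzyme genes Cyp51, Fdps and Idi1 were higher by 0.96, 0.88 and 0.54. All 3 lost their calls without C57BL/6J array 2 (adjusted p = 0.0504, 0.0511 and 0.0797), Fdps and Idi1 without array 1 (0.0599 and 0.155), and Idi1 without KKAy array 1 (0.0607) or array 2 (0.0988). The epoxidase gene Sqle was not called (0.10). Without either C57BL/6J array 5 members were higher, and without KKAy array 2 there were 8.

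Bile acid genes had 7 members higher and 7 lower of 29 (24.1% each, against 9.96% and 11.5% of all genes), and the lower ones included the enzyme that opens the main pathway. Cyp7a1, the rate-limiting enzyme of bile acid synthesis, read 3.19 and 3.24 in C57BL/6J and 0.73 and 0.83 in KKAy, lower by -2.44 (SE 0.10, adjusted p = 0.000108), with -2.24 on a second probe and -0.52 at 4 weeks. Cyp39a1, which hydroxylates an oxysterol on the way to bile acids, had the largest fall of all named genes that were measured in both strains. Its probe at chr17:43213479-43213538 of mm8 read 4.19 and 4.10 in C57BL/6J and -0.91 and -1.09 in KKAy, a difference of -5.15 (SE 0.11, adjusted p = 2.1e-05), and a second probe gave -5.12. At 4 weeks the same gene read 4.63 and 4.58 in C57BL/6J and 4.35 and 4.31 in KKAy, so the gap opened between the ages (-4.87, SE 0.15, adjusted p = 0.000571). Cyp8b1, which sets the share of cholic acid, differed by -1.64 (adjusted p = 0.0312), a call lost without C57BL/6J array 1 (0.17) or array 2 (0.0875) and without KKAy array 2 (0.11). Cyp7b1, of the alternative pathway, was not called (0.43, adjusted p = 0.346). The repressor gene Nr0b2 (SHP) was higher by 0.91 and Nr5a2 (LRH-1), an activator of bile acid enzymes, by 1.94. The Nr5a2 call was lost without C57BL/6J array 1 (adjusted p = 0.0864) or array 2 (0.0632), and that of Nr0b2 without array 2 (0.0553). The importers Slco1a1 and Slco1a4 went opposite ways, by 1.73 (0.68 on a second probe, not called) and -3.21. The list had 4 higher and 3 lower members without C57BL/6J array 1, and 3 and 3 without array 2.

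Genes of endoplasmic reticulum stress and protein folding were higher in KKAy. When unfolded proteins build up, the sensors IRE1, PERK and ATF6 switch on chaperones, degradation genes and stress factors. Of 38 members tested, 14 were higher (36.8%, against 9.96% of all genes) and limma called 0 lower. At an unadjusted p under 0.05 there were 21 higher and 0 lower, a threshold that 5822 of all 17045 genes passed in either direction. The median was 0.51. Many genes of ATF6 and XBP1 carry an endoplasmic reticulum stress element in the promoter, searched here as CCAAT, any 9 bases and CCACG on both strands. It lay in 0.13% (35 of 27025) of the RefSeq promoter windows of 300 bases searched (250 before to 50 after the gene start). The first window of each gene was used, and the windows of a single chromosome were left out. Of the 33 list members with a window, 9 held it (27.3%), in 4 of 13 called higher and in 5 of 20 not called. The list was written from known stress genes, so its share is no result of these data. The 250 bases before the start are shown for the 4 called genes that hold it, from RefSeq on GRCm38.p6, 5′ to 3′ on the strand of the gene, to show where the element sits in genes that were higher together; capitals mark its CCAAT and CCACG ends, or CGTGG and ATTGG where it lies on the other strand.
Hspa5 (chr2:34771840-34772089, plus strand): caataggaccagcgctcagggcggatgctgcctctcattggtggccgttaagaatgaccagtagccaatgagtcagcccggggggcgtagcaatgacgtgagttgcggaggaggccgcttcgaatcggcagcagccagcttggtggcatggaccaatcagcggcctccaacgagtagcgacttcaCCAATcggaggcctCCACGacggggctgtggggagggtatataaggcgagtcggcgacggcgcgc
Derl3 (chr10:75893148-75893397, plus strand): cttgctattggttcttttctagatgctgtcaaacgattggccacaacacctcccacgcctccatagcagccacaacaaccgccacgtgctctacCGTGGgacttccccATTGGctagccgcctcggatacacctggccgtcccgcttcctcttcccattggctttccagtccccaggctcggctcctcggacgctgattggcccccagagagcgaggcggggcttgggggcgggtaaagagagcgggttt
Pdia6 (chr12:17266339-17266588, plus strand): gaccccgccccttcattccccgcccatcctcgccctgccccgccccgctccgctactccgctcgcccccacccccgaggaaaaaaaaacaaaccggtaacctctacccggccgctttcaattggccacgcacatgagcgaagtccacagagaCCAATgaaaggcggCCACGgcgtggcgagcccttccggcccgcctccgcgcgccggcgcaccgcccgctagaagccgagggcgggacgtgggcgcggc
Syvn1 (chr19:6046326-6046575, plus strand): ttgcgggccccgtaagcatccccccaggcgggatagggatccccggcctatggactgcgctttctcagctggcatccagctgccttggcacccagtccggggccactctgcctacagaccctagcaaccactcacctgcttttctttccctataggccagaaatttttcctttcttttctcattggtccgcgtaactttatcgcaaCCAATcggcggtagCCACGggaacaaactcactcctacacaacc

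The element began 65, 156, 98 and 44 bases before the start in Hspa5, Derl3, Pdia6 and Syvn1. A match in these letters is a description, and no binding was measured. Derl3, which helps to pull misfolded proteins out of the reticulum, read -1.29 and -1.42 in C57BL/6J and 0.44 and 0.25 in KKAy, higher by 1.70 (SE 0.13, adjusted p = 0.000642). At 4 weeks it was lower in KKAy, by -2.32, and the difference moved by 4.01 (SE 0.18, adjusted p = 0.00159). Sdf2l1, a partner of the main chaperone, read 1.99 and 1.99 against 3.49 and 3.56, higher by 1.53 (SE 0.09, adjusted p = 0.000344) after -0.81 at 4 weeks. Pdia6, a disulfide isomerase, was higher by 1.25 (SE 0.18) and 1.70 on a second probe. Dnajb9, a co-chaperone induced by XBP1, was higher by 1.24 (SE 0.14).

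Among the other members called higher were Chac1, Atf3, Asns and Ddit3, known as targets of ATF4, which acts downstream of PERK. Chac1, which breaks down glutathione, read -1.36 and -1.17 against 0.85 and 1.22, higher by 2.29 (SE 0.19, adjusted p = 0.000883). Atf3, a stress transcription factor, was higher by 1.51 (SE 0.13), and Asns, the asparagine synthetase, by 1.51 (SE 0.41, adjusted p = 0.0483). Ddit3 (CHOP), a factor of prolonged stress, differed by 0.69 (adjusted p = 0.0332). Hspa5, the chaperone BiP, differed by 0.42 (adjusted p = 0.0307) and Syvn1, a ubiquitin ligase of the degradation route, by 0.84 (adjusted p = 0.0148). The calls of Hspa5, Ddit3, Asns and Syvn1 were not stable: without C57BL/6J array 1 their adjusted p-values were 0.17, 0.181, 0.236 and 0.105, without array 2 they were 0.156, 0.119, 0.106 and 0.0672, and without KKAy array 2 they were 0.0688, 0.136, 0.179 and 0.0667. Hspa5 was also lost without KKAy array 1 (0.116), with quantile normalization (0.30, adjusted p = 0.284) and with the spike-in scaling (0.0633). Fewer members were called higher without either C57BL/6J array and without KKAy array 2, while calls also fell among all genes.

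Acute phase genes, which liver cells secrete in inflammation, were higher in KKAy at both ages. Of 33 members, 17 were higher (51.5%, against 9.96% of all genes) and 1 lower, with a median of 0.43. At 4 weeks 15 members, not all necessarily the same ones, were higher (against 6.41% of all genes at that age). Saa1, which encodes serum amyloid A, read 6.24 and 6.47 in C57BL/6J and 9.25 and 9.70 in KKAy, higher by 3.12 (SE 0.22, adjusted p = 0.000536). Its near-identical neighbour Saa2 was higher by 3.14, and Saa3, which macrophages also make, by 3.79 (SE 0.19). Apcs, serum amyloid P, read 1.34 and 1.41 against 5.27 and 5.63, higher by 4.07 (SE 0.19, adjusted p = 0.000152). Lcn2, an iron-scavenging lipocalin, was higher by 4.62 (SE 0.61, adjusted p = 0.00451) with wide spread, at -0.34 and -1.004 against 4.63 and 3.27. Orm3, Steap4 and Crp were higher by 2.26, 2.48 and 1.71. The lower member was Il1rn, which blocks interleukin-1 signals (-0.92, adjusted p = 0.025), a call lost without C57BL/6J array 1 (0.147) or array 2 (0.0591). Hamp, the iron hormone hepcidin that inflammation induces, was not called (-0.49, adjusted p = 0.36, arrays overlapping). Neutrophils carry S100a8 and S100a9, which were higher by 1.58 (SE 0.15) and 2.32 (SE 0.27). Of the other 4 neutrophil markers tested, Mpo, Retnlg, Ltf and Csf3r, none was called (differences -0.12 to 0.49), and Elane, Camp, Ngp and Cxcr2 were not well above background on both arrays of any group. The part of neutrophils in the acute phase values was not tested.

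**Figure D3:**
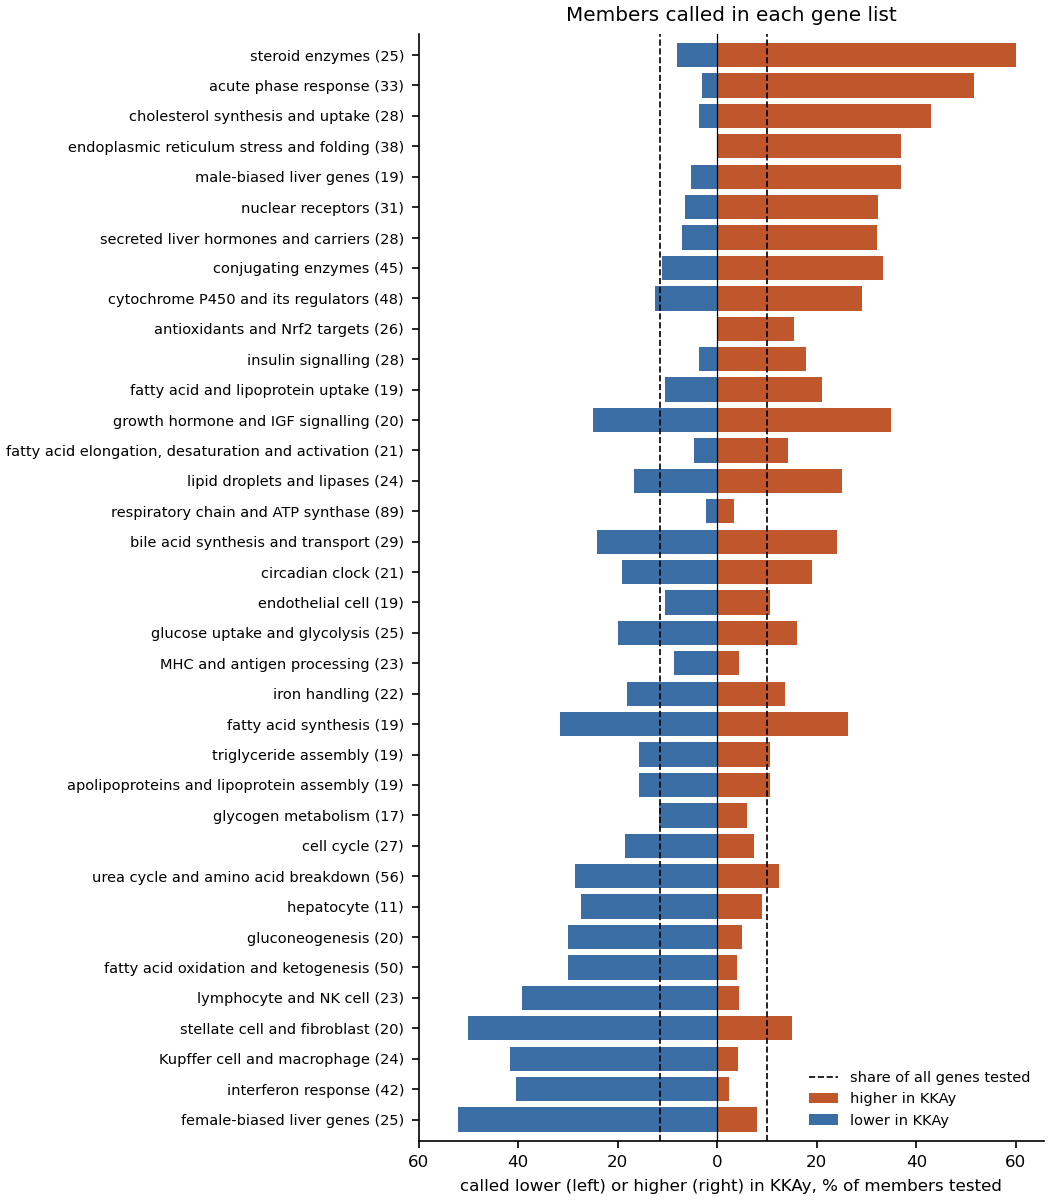
Share of the members tested that were called higher in KKAy (orange, right) or lower (blue, left) at 11 weeks, in percent, for each gene list with at least 10 members tested (number in brackets). Dashed lines mark the shares of all genes tested, 9.96% higher and 11.5% lower; steroid enzymes, acute phase, cholesterol and stress lists lie far to the right, and the female-biased, stellate cell, macrophage and interferon lists far to the left.

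Interferon response genes were lower in KKAy. Of 42 members tested, 17 were lower (40.5%, against 11.5% of all genes) and 1 higher, with a median of -0.56. The higher one was Mx2, an antiviral GTPase gene (0.82, adjusted p = 0.034), which lost its call without any single 11-week array (adjusted p = 0.0612 to 0.179). Usp18, which shuts off the type I interferon receptor, read 0.94 and 1.001 in C57BL/6J and -2.40 and -2.37 in KKAy, lower by -3.36 (SE 0.10, adjusted p = 5.95e-05). Ifit1, an antiviral RNA binder, was lower by -1.82 (SE 0.11), and Irf7, the factor that amplifies the response, by -1.43 (SE 0.12). At 4 weeks 25 members were lower (8.99% of all genes at that age), with Irf7 at -3.11, so its gap was smaller at 11 weeks (by 1.68, adjusted p = 0.0101), a call that held in 3 of 8 fits with 1 array left out. The lower members numbered 10 or 9 without C57BL/6J array 1 or 2. Class II antigen presentation showed a like change with age: H2-Ab1 and H2-Eb1 differed by -0.19 and 0.03 at 11 weeks, neither called, against -1.96 and -1.74 at 4 weeks. Of 23 genes of antigen presentation, 7 had a difference that was higher at 11 weeks than at 4 weeks, against 2.05% of all genes.

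Markers of macrophages and of lymphocytes and NK cells were lower alongside, at 4 weeks as at 11 weeks. In bulk liver RNA, fewer cells of a type cannot be told apart from less RNA per cell. Of 24 markers of Kupffer cells, the macrophages of the liver, 10 were lower (41.7%, against 11.5% of all genes) and 1 higher (4.17%, against 9.96%), with a median of -0.45. Marco, a scavenger receptor, read 2.49 and 2.96 in C57BL/6J and -2.53 and -1.90 in KKAy, lower by -4.94 (SE 0.36, adjusted p = 0.000562). The receptor gene Csf1r, on which macrophages depend, was lower by -0.88 (SE 0.12), and by -0.91 on a second probe. Clec4f, a lectin of Kupffer cells, differed by -0.68 (adjusted p = 0.0107), a call lost without C57BL/6J array 1 (0.0692) or array 2 (0.0834) and without KKAy array 2 (0.0555). Timd4 (-0.03) and Cd68 (-0.20) were not called. The summed level of the list was 6.93 and 7.12 in C57BL/6J and 6.54 and 6.86 in KKAy. At 4 weeks 15 of the 24 were lower (against 8.99% of all genes at that age), with a median of -0.81. Fewer of these markers were called lower without any single 11-week array, and the higher call was lost each time. Calls also fell among all genes in these fits. Of 23 lymphocyte and NK cell markers, 9 were lower (39.1%) and 1 higher (4.35%), among them the granzyme genes Gzmb (-1.36) and Gzma, which was not well above background in KKAy and at least 1.71-fold higher in C57BL/6J. Lower ones numbered 4 and 3 without C57BL/6J array 1 or 2. These markers were dim, with 8 of them not above background on either KKAy array. With normexp background correction limma called 0 of them (5 lower and 1 higher at an unadjusted p under 0.05). With that correction 4518 of all 17045 genes passed the unadjusted threshold. At 4 weeks 14 of the 23 were lower (against 8.99% of all genes at that age), with a median of -0.83.

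Stellate cell and fibroblast markers were lower in 10 (50%, against 11.5% of all genes) and higher in 3 (15%, against 9.96%) of 20, with a median of -0.59. Mmp2, a matrix protease, was lower by -1.61 (SE 0.13), Dpt, a dermatan-binding matrix protein, by -1.34 (SE 0.10) and Lum, a collagen-binding proteoglycan, by -2.21 (SE 0.35). The collagen gene Col1a1 differed by -0.996 (adjusted p = 0.0123). Calls were lost without C57BL/6J array 2 for Lum (adjusted p = 0.06) and Col1a1 (0.0869), and without array 1 for Col1a1 (0.0598). Fewer members were called, lower as well as higher, without any single 11-week array, while calls also fell among all genes. The higher calls were all lost without either C57BL/6J array. Of 19 endothelial markers, 2 were higher and 2 lower (10.5% each, near the shares of all genes), including Lyve1, of the sinusoid lining (-2.18, SE 0.30), and 1 was lower without any single 11-week array.

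Steroid enzymes were the list with the largest share called. Of 25 members tested, 15 were higher in KKAy (60%, against 9.96% of all genes) and 2 lower (8%, against 11.5%), with a median of 0.95. At 4 weeks 1 was higher and 3 lower, against 6.41% and 8.99% of all genes at that age. Akr1c18, which inactivates progesterone, gave the largest rise among the named genes measured in both strains. Its probe at chr13:4134506-4135881 of mm8 read -5.52 and -5.56 in C57BL/6J and 4.62 and 5.02 in KKAy, a difference of 10.36 (SE 0.20, adjusted p = 2.1e-05). KKAy was at 4.79 and 5.11 at 4 weeks already, but C57BL/6J was then at -0.62 and -0.30, so the gap widened by 4.95 through the lower C57BL/6J level. The other called Akr1c genes, Akr1c20, Akr1c6, Akr1c19, Akr1c14, Akr1c13 and Akr1c12, were higher by 1.47, 1.41, 1.39, 1.25, 1.03 and 0.83, and the dim Akr1c21 was not called (-0.15). For Akr1c20 a second probe gave 0.28, not called.

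Of the 7 Hsd3b genes, whose enzymes make or reduce active steroids, 6 were higher at 11 weeks and Hsd3b7, of bile acid synthesis, was not called (0.04). Hsd3b5, a form of adult male liver, read 0.37 and 0.42 in C57BL/6J and 4.54 and 4.33 in KKAy, higher by 4.04 (SE 0.11, adjusted p = 4.17e-05), after -0.83 at 4 weeks. Hsd3b4 was higher by 4.15 (SE 0.38), Hsd3b2 and Hsd3b1 by 1.78 and 1.77, and Hsd3b6 and Hsd3b3 by 1.34 and 1.30. Both families hold near-identical copies side by side, so a probe may read more than 1 of them, and members are not independent. The 2 lower members were Cyp17a1 (-3.24, SE 0.20), which makes androgen precursors, and Sult1e1, the oestrogen sulfotransferase (-3.14, SE 0.32). The higher members numbered 8 without C57BL/6J array 1 or 2, and without KKAy array 2 there were 10. Among them Akr1c6, Akr1c12, Akr1c13, Akr1c19, Hsd3b3 and Hsd3b6 lost their calls without either C57BL/6J array (adjusted p = 0.0563 to 0.206), the Akr1c genes among these also without KKAy array 2 (0.0724 to 0.117) and the Hsd3b genes without KKAy array 1 (0.139 and 0.0662).

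Among genes known to differ between male and female liver, calls were mostly lower for female-biased and mostly higher for male-biased members. Growth hormone, secreted in pulses in males and more evenly in females, sets most of this bias in mice after puberty. Of 25 female-biased genes tested, 13 were lower in KKAy (52%, against 11.5% of all genes) and 2 higher, with a median of -1.06. Of 19 male-biased genes, 7 were higher (36.8%) and 1 lower, with a median of 0.17, and 11 were not called. The summed level of the female-biased list was 9.90 and 9.98 in C57BL/6J and 10.11 and 10.39 in KKAy. That of the male-biased list was 10.91 and 10.97 against 10.86 and 10.76. The sums thus did not follow the counts. Cyp2b9, a female-biased cytochrome, read 4.52 and 4.67 in C57BL/6J and 0.96 and 1.17 in KKAy, lower by -3.54 (SE 0.14, adjusted p = 0.000113), and -3.65 on a second probe. At 4 weeks it was higher in KKAy, by 0.97. Its near-identical relatives Cyp2b10 and Cyp2b13 were lower by -3.72 and -3.71, although the second probe of Cyp2b13 gave -0.72, not called. Against this direction ran Ntrk2, a neurotrophin receptor gene, which read -4.76 and -3.68 in C57BL/6J and 1.83 and 2.56 in KKAy (6.42, SE 0.45, adjusted p = 0.000484). On the male side, Moxd1, a monooxygenase-like gene, was higher by 3.32 (SE 0.35). Female-biased genes were often dim, with 8 not above background on either KKAy array, and with normexp background correction 8 were lower and the median was 0.05. The male-biased list had 4 higher members without either C57BL/6J array.

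Growth hormone and IGF genes had 7 members higher (35%, against 9.96% of all genes) and 5 lower (25%, against 11.5%) of 20. Ghr, the growth hormone receptor, was higher by 0.83 (SE 0.13, 1.29 on a second probe), a call lost without C57BL/6J array 1 (adjusted p = 0.0634). Socs2, a feedback inhibitor that growth hormone induces, was higher by 1.63 (SE 0.16), but its second probe gave -0.10. Igf1, the hormone made by liver under growth hormone, was not called (0.39, adjusted p = 0.223). Igfbp2, an IGF carrier, read 7.49 and 7.43 in C57BL/6J and 4.48 and 4.37 in KKAy, lower by -3.03 (SE 0.10, adjusted p = 6.12e-05). Lepr, the leptin receptor, stood at -0.85 and -1.22 in C57BL/6J and was not well above background in KKAy, so that C57BL/6J was at least 17.1-fold higher, with -5.48 on a second probe. The counts were 3 higher and 3 lower without C57BL/6J array 1, 4 and 3 without array 2, 6 and 3 without KKAy array 1 and 5 and 3 without KKAy array 2, and with normexp background correction 7 and 2.

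**Figure D4:**
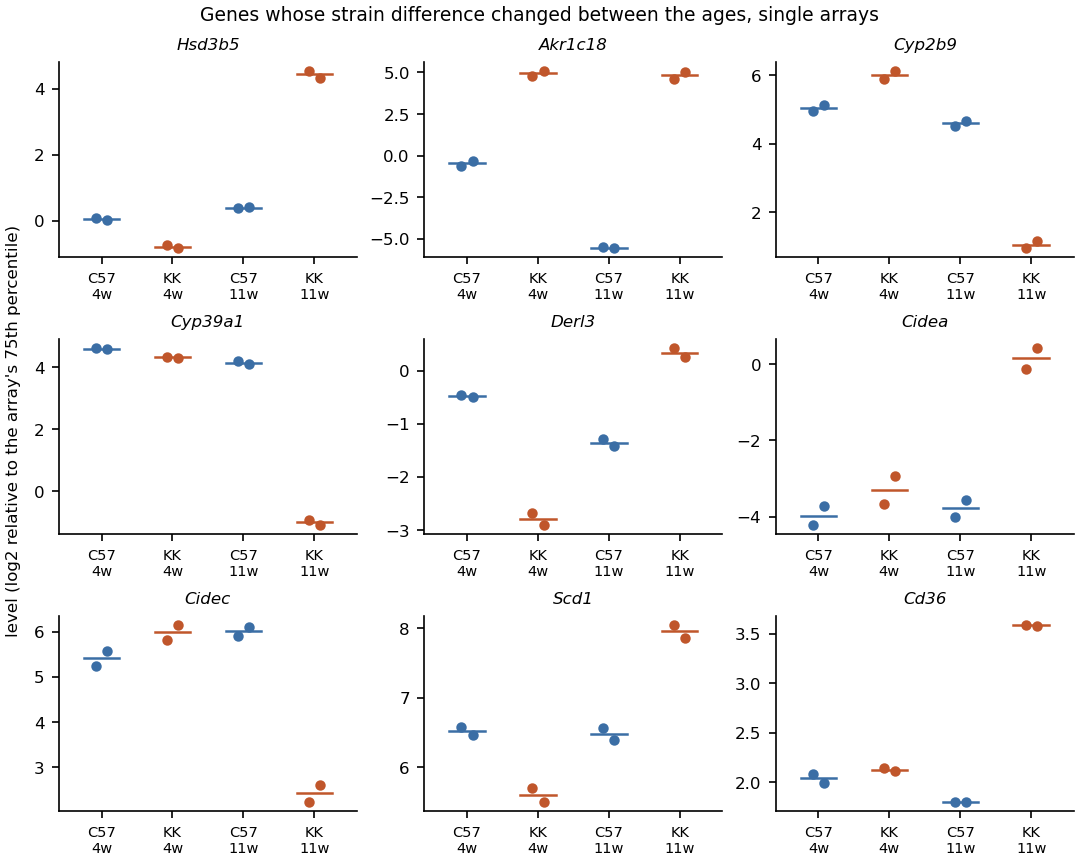
Levels on single arrays in all 4 groups (log2 relative to the array's 75th percentile, with a separate vertical scale for each gene) for 9 genes whose strain difference was not alike at 4 and 11 weeks. Points are arrays, bars the mean of 2 arrays, blue C57BL/6J and orange KKAy; Hsd3b5 and Cidea stand out in KKAy at 11 weeks, Cyp39a1, Cyp2b9 and Cidec fall away there, and Derl3 reverses its order.

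Drug-metabolising enzymes had more members higher than lower. Of 48 genes of cytochromes P450 and their regulators, 14 were higher (29.2%, against 9.96% of all genes) and 6 lower (12.5%, against 11.5%), and of 45 conjugating enzymes 15 were higher (33.3%) and 5 lower (11.1%). Cyp26a1, which breaks down retinoic acid, read 0.18 and 0.25 in C57BL/6J and 2.48 and 2.62 in KKAy, higher by 2.33 (SE 0.11, adjusted p = 0.000169). Cyp2c38 was higher by 4.07 (SE 0.22), but its second probe gave 0.89, not called. Tpmt, which methylates thiopurines, was higher by 2.35 (SE 0.15) and Gstm2, a glutathione transferase, by 1.59 (SE 0.11). Cyp2e1, which oxidises ethanol, was not called (0.20, arrays overlapping). Antioxidants and Nrf2 targets gave 4 members higher of 26 (15.4%): Aox3 (1.42), Gclc (1.14), Aox1 (1.08) and Hmox1 (0.67, a call lost without C57BL/6J array 1, adjusted p = 0.0656, or array 2, 0.0511), while Nqo1, a common marker of Nrf2, was not called (0.20, adjusted p = 0.344). Leaving out C57BL/6J array 1 or 2, 7 cytochromes were higher and 4 lower, and 7 or 8 conjugating enzymes higher and 3 lower, and without KKAy array 2, 9 cytochromes were higher.

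Amino acid breakdown was lower in KKAy more often than higher. Of 56 members tested, 16 were lower (28.6%, against 11.5% of all genes) and 7 higher, with a median of -0.17. Asl, a urea cycle enzyme, read 7.78 and 7.59 in C57BL/6J and 6.12 and 5.85 in KKAy, lower by -1.70 (SE 0.13, adjusted p = 0.000745). Cps1, which starts the cycle, was lower by -0.91 (SE 0.12) and Arg1, which ends it, by -0.62 (lost without C57BL/6J array 1, adjusted p = 0.0887, or array 2, 0.0677, and without KKAy array 2, 0.053), while Ass1 and Otc were not called (-0.47 and 0.60). Rhbg, an ammonium channel, and Bckdhb, of branched-chain amino acid breakdown, were higher by 2.04 (SE 0.10) and 1.496 (SE 0.10). Lower members numbered 5 without C57BL/6J array 1, 8 without array 2 and 10 without KKAy array 2, and higher members 2 without any single 11-week array.

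Of 28 secreted hormones and carriers, 9 were higher (32.1%, against 9.96% of all genes) and 2 lower (7.14%, against 11.5%). Gdf15, a stress hormone that curbs appetite, read 0.56 and 0.60 against 2.33 and 2.41, higher by 1.80 (SE 0.10, adjusted p = 0.000256). The thyroxine and corticosteroid carriers Serpina7 and Serpina6 were higher by 2.27 (SE 0.10) and 1.77. For Gdf15 and Serpina7 the 4-week differences were -0.56 and -0.03. Without either C57BL/6J array 5 members were higher, and without KKAy array 2 there were 6.

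Clock genes had 4 members higher and 4 lower of 21 (19.05% each, against 9.96% and 11.5% of all genes), and livers taken at unlike times of day would differ in them. Dbp, a clock output factor with a strong daily rhythm, read 1.75 and 1.99 in C57BL/6J and 4.76 and 5.12 in KKAy, higher by 3.07 (SE 0.19, adjusted p = 0.00035), and by 1.95 at 4 weeks. Per3, Nr1d2 and Tef were higher by 1.91, 1.28 and 1.06. Nr1d2 lost its call without C57BL/6J array 2 (adjusted p = 0.0564) and Per3 with normexp background correction (0.134). Arntl (BMAL1), which drives them, differed by -1.14 (adjusted p = 0.0306), a call lost without C57BL/6J array 1 (0.169) or array 2 (0.0946) and without KKAy array 2 (0.12). Per2 (0.09) and Cry1 (-0.27) were not called. The lower members numbered 1 or 2 without C57BL/6J array 1 or 2, and 2 without either KKAy array. The part of sampling time in these values was not tested.

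Set against the same strains at 4 weeks, 650 genes (3.81%) had a strain difference that was not the same at both ages, 350 (2.05%) with a higher and 300 (1.76%) with a lower difference at 11 weeks. Age goes with the slide, so a change of the strain difference with age cannot be told apart from one with slide. Of the 3660 genes called at 11 weeks, 518 (14.2%) were among them. Akr1c18, Hsd3b5, Derl3, Sdf2l1, Scd1 and Gdf15 had a higher difference at 11 weeks, and Cyp39a1, Cyp2b9, Cidec, Igfbp2, Lpin1, Cyp7a1, Apoa4 and Tg a lower one, and each of these calls held when any 1 of the 8 arrays was left out. Tg, which encodes thyroglobulin, read -1.29 and -1.19 in C57BL/6J at 11 weeks and was not well above background in KKAy, where C57BL/6J was at least 14.9-fold higher, after -0.66 at 4 weeks. Acot5, an acyl-CoA thioesterase gene, differed by 0.54 at 4 weeks and at 11 weeks was not well above background in KKAy, where C57BL/6J was at least 8.59-fold higher. Clec2h, a lectin gene, moved from -0.61 to 4.12. Sult2a2 differed by 6.72 at 4 weeks and Shbg was then well above background in KKAy alone, but at 11 weeks neither strain was so on both arrays for either gene. The count of 650 was 62 and 82 without C57BL/6J array 1 or 2 at 11 weeks, 295 and 248 without KKAy array 1 or 2 at 11 weeks, 163 and 194 without C57BL/6J array 1 or 2 at 4 weeks, and 185 and 174 without KKAy array 1 or 2 at 4 weeks.

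**Figure D5:**
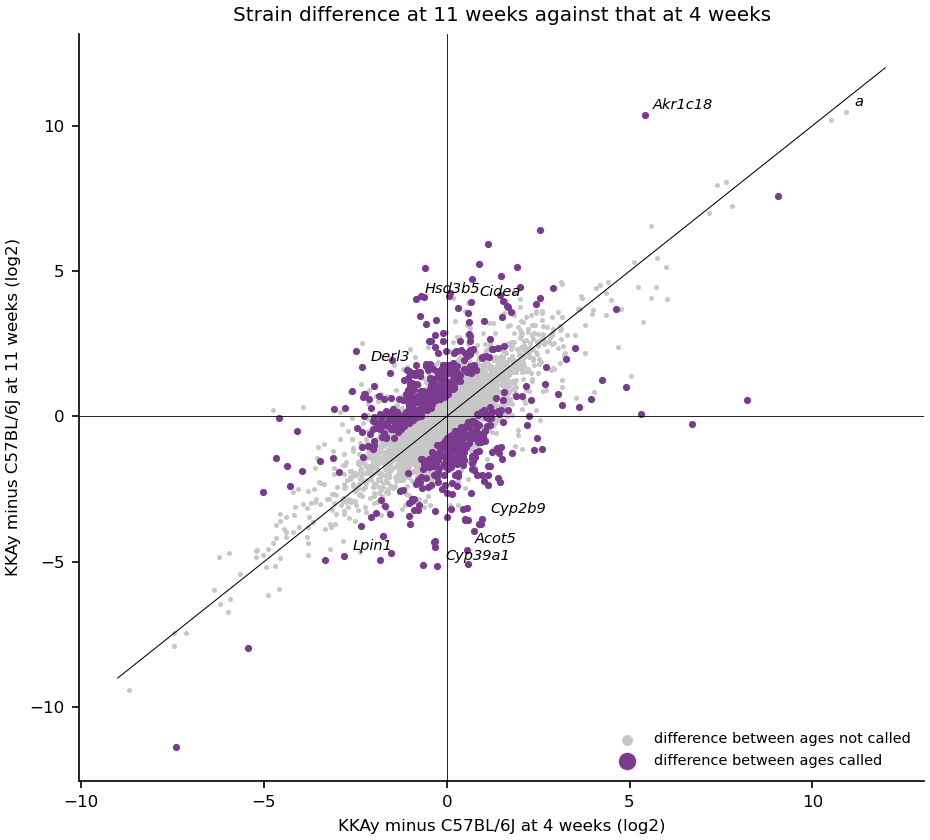
Strain difference at 11 weeks (vertical axis) against that at 4 weeks (horizontal axis), both KKAy minus C57BL/6J on the log2 scale, with 1 point per gene tested and the line of equal differences. Purple points are the 650 genes whose difference was called as not the same at both ages; Akr1c18, Hsd3b5 and Derl3 lie above the line and Cyp39a1, Lpin1 and Cyp2b9 below it.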

How the data were processed

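Liver RNA was hybridised to 1-colour Agilent whole-genome arrays, 2 arrays in each of 4 groups on 2 slides. Per the file headers, the authors' scanner files were made with Feature Extraction 9.5.1.1, and the deposited processed signal is an intensity with background already subtracted. The value table holds the authors' log2 values; over 99.5% of them lay within 0.001 of log2 signal minus the 75th percentile of the array after a constant shift, with medians of -3.96 to -3.67, and their centring is otherwise not given in the sources used here. Probe positions are those of the files, on mm8.

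Control spots and 59 to 89 outlier spots per array were left out, and 0 spots were saturated. Levels are log2 intensity minus the 75th percentile of the array's non-control spots. A probe was kept (25319 in all) where both arrays of some group had it well above background, and each gene was read by its brightest kept probe. Names came from RefSeq by accession (24496 of 41174 probes), symbol (6234) or older symbol (2386), and 8058 probes kept the file's name or none. The 17045 genes (14421 with a gene symbol) were fitted over all 8 arrays with limma 3.58.1 in R 4.3.3 (lmFit, eBayes, 4 residual and 1.93 prior degrees of freedom), with Benjamini-Hochberg adjustment over all genes and a threshold of 0.05; SE is that of the fit. The change with age is the interaction term.

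On simulated data (17035 genes, 200 changed) the same steps recovered 38% of genes changed by 1 and 74% of those changed by 2 on the log2 scale, with 6 false calls. The simulated noise was independent between arrays, whereas replicate differences in the data correlated across groups. Far more genes (3660) were called in the data than were changed in the simulation. These rates may therefore not hold for the data.

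Gene lists, named genes and markers were chosen with earlier results of these data known. The genes named are the 10 largest rises and falls, the 2 members of each list with the smallest adjusted p, the 6 largest changes with age in each direction, and a set named whatever their values. Further list members given as examples were chosen after their values were seen. Alternatives were other scalings, quantile normalization, normexp background correction with an offset of 50, the deposited value table, other filters, the mean of probes, the 11-week arrays alone, the replicate number as a block and leaving out each array. Scaling to the spike-in controls was added after the data were seen. Pck1 and Irs2 were not analysed here. Some other genes of the lists are counted in them but not reported singly here.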

Additional observations from a re-analysis of the deposited data

Results flagged for a closer look

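For 86 of the genes named here, the strain difference at 11 weeks was not the same as at 4 weeks by limma's test of the difference between the ages (adjusted p under 0.05, Benjamini-Hochberg over all genes), which 3.81% of all genes passed. Values are the 11-week difference minus the 4-week difference on the log2 scale, with 2 arrays a group. Age goes with slide in this series, so the 2 cannot be told apart. With each of the 8 arrays left out in turn, 21 of the 86 were called every time and 65 were lost at least once. For 12 of them (Acot5, Rpl39l, Tg, Olfr631, Moxd1, Gzma, Sult2a2, Obp2a, Shbg, Lepr, Hnf4aos and Plin1) neither array of at least 1 group stood well above background, so their values below rest on signal at background and have no order among the rest.

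Of the 21, the difference moved upward for Ppp1r42 by 5.71, Akr1c18 by 4.95, Hsd3b5 by 4.87, Clec2h by 4.74, Derl3 by 4.01, Aox3 by 2.44, Scd1 by 2.40 and Gdf15 by 2.35. Upward moves of this kind were also those of Sdf2l1 by 2.34, Serpina7 by 2.29 and H2-Eb1 by 1.77. Of the 21, it moved downward for Acot5 by -5.13, Cyp39a1 by -4.87, Rpl39l by -4.70, Cyp2b9 by -4.50, Tg by -4.45, Cidec by -4.16, Apoa4 by -2.98, Igfbp2 by -2.28 and Lpin1 by -1.99. Downward moves were also those of Cyp7a1 by -1.91.

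Of the 65 that were lost at least once, the difference moved upward for Hsd3b4 by 4.84, Olfr631 by 4.82, Ntrk2 by 3.86, Moxd1 by 3.62, Cidea by 3.25, Acat2 by 2.63, Gzma by 2.42, Elovl3 by 2.29 and Saa3 by 2.13. Next in size were Socs2 by 1.999, Nr0b2 by 1.97, Fitm1 by 1.92, Hsd3b1 by 1.87, H2-Ab1 by 1.77, Atf3 by 1.72, Akr1c20 by 1.71, Cd36 by 1.70 and Irf7 by 1.68. Smaller upward moves were those of S100a8 by 1.65, Hsd3b2 by 1.62, Serpina6 by 1.61, H2-Aa by 1.57, Apcs by 1.53, Alas2 by 1.47, Akr1c14 by 1.31, Fdps by 1.27 and Psmb8 by 1.21. Last in this direction came Idi1 by 1.2, Slc40a1 by 1.13, Slco1a1 by 1.101, Rhbg by 1.08, Cyp26a1 by 1.07, Apobec1 by 1.05, Ghr by 1.04, Gclc by 1.02 and Srebf1 by 0.88. Others were Ndufaf5 by 0.85 and Hmox1 by 0.83. Among the same 65, the difference moved downward for Sult2a2 by -6.96, Obp2a by -5.63, Shbg by -5.25, Cyp2b13 by -4.65, Cyp2b10 by -4.59, Sult1e1 by -3.69, Lepr by -3.17, Marco by -3.11 and Cpt1b by -2.59. Less far down moved Hnf4aos by -2.53, Adipoq by -2.52, Ehhadh by -2.003, Acot2 by -1.83, Usp18 by -1.81, Plin1 by -1.71, Il1rn by -1.53, Ccnd1 by -1.50 and Rrm2 by -1.49. Smaller downward moves were those of Cdh15 by -1.47, Acot1 by -1.46, Asl by -1.44, Pnpla2 by -1.42, Per2 by -1.35, Got1 by -1.21, Pck2 by -1.17, Ciart by -1.101 and Cox6b2 by -1.05.

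Groups of 2 arrays were too small for a search for single arrays far from their group.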

How the results depend on the processing

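The count of 3660 genes called at 11 weeks stayed within 1.5 times of itself with other scalings, quantile normalization, the deposited value table, the mean of probes and a stricter filter. It was 2352 with normexp background correction, 2127 with no filter on dim genes and 2120 with the 11-week arrays alone, which leaves fewer arrays for the spread. Calls of at least 2-fold numbered 1680, and 821 with normexp. The 650 genes whose strain difference changed with age were 324 with normexp, 142 with no filter and 415 with the spike-in scaling. With each array left out in turn, these counts ran from 1475 to 3069, from 1174 to 1710 and from 62 to 295. H2-Oa, of class II antigen presentation, was the single named gene that reversed: -0.59, and 0.069 with normexp (adjusted p = 0.884). The cause of these changes was not tested.

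The labels give the same numbers 1 and 2 in every group, without saying that they pair samples. The differences between replicates 1 and 2 correlated across groups (r = 0.53 to 0.68 over genes, which are not independent replicates), and on both slides replicate 1 lay at positions 1 and 3 and replicate 2 at positions 2 and 4. With the replicate number as a block, limma called 9364 genes at 11 weeks, all 3660 among them, and 5286 genes for the change with age; the block ended no call of a named gene and called 23 named genes, Igfbp1 and Acaca among them, that were not called without it.

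With 2 arrays a group, only large or tight differences pass. Dim genes are limited most: between 56.3% and 66.7% of spots were well above background. Plin1, Foxo3, Per3, Gzma and Gzmb were among the genes that lost their 11-week calls with normexp background correction. So did Hk2 (limma adjusted p = 0.186), Rpl39l (0.0815), Ddit3 (0.0762), Mx2 (0.0634) and Hsd3b3 (0.0617). Hsd3b3 also lost its call with quantile normalization (0.0552) and scaling over kept probes (0.0594).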

Other observations

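Of 27 genes of cell division and its control tested, 5 were lower in KKAy (18.5%, against 11.5% of all genes) and 2 higher (7.41%, against 9.96%). Cdkn1a, which encodes the cell cycle inhibitor p21, read 2.29 and 1.97 in C57BL/6J and -0.81 and -1.73 in KKAy, lower by -3.40 (SE 0.36, adjusted p = 0.00197 by limma). Ccnd1, the cyclin of the G1 phase, and Rrm2, which makes deoxynucleotides, were both lower by -1.53, after -0.03 for each at 4 weeks. The higher calls were lost without either C57BL/6J array, while calls also fell among all genes.

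Of 31 nuclear receptors, 10 were higher (32.3%, against 9.96% of all genes) and 2 lower (6.45%, against 11.5%). Thrb, a thyroid hormone receptor, was higher by 1.29 (SE 0.10), but a second probe gave 0.22, not called. Fewer receptors were called higher without either C57BL/6J array and the lower calls were lost, while calls also fell among all genes. In iron handling, Slc40a1, the iron exporter ferroportin, was higher by 1.34 (SE 0.12) and Bmp6, which signals iron stores to hepcidin, lower by -1.06 (SE 0.10), with -1.32 on a second probe. The erythroid markers Alas2 and Klf1 were higher by 1.748 (SE 0.16) and 1.43 (SE 0.21), the latter not called without C57BL/6J array 2 (adjusted p = 0.0519), and the other 4 erythroid markers tested were not called.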
